A study of Mus musculus with 8 samples.

Results

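The cluster from miR-379 to miR-410 is a run of miRNA genes in the imprinted Dlk1-Dio3 domain of mouse chromosome 12. The assays described here were those for miR-379, miR-411, miR-376a, miR-376c, miR-409-3p, miR-410, miR-494, miR-667, miR-382 and miR-543, chosen by name, which makes 10 of the 381 assays listed for the card. In the liver of mice exposed to carbon tetrachloride (CCl4), a solvent that injures hepatocytes and produces fibrosis on repeated dosing, miR-409-3p and miR-410 rose most among all tested assays after 1 week. Mean levels of these 2 miRNAs were 61.9 and 24.4 times those of untreated liver. miR-379, miR-411, miR-376a and miR-376c were also higher at 1 week, whereas miR-494 was lower. At 4 and at 8 weeks miR-409-3p and miR-410 were the cluster assays called higher than in untreated liver.

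In the Dlk1-Dio3 domain the paternal chromosome expresses protein-coding genes such as Dlk1, and the maternal chromosome expresses the noncoding RNAs Meg3, Rian and Mirg together with many small RNAs. The cluster miRNAs are best known from the embryo, the placenta and the brain, and they decline in the liver after birth, where mice lacking the cluster adapt poorly to the end of maternal supply. A mature miRNA is cut from a hairpin precursor, enters an Argonaute complex and represses transcripts that pair with its seed, the bases near its 5′ end.

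Total RNA from whole liver was assayed on TaqMan array cards, 2 cards for each of 4 groups and 8 in all, in C57B6 females that were 4 weeks old at the start. The groups were untreated mice, whose label names no treatment and no vehicle, and mice given CCl4 for 1, 4 or 8 weeks. CCl4 was injected into the peritoneum in corn oil 2 times a week, at a dose given as 1 mg/kg in the labels and as 1 ml/kg in the study's methods. The age of the untreated mice at sampling is not given, so time on CCl4 and age cannot be told apart. The labels do not state that the 2 cards of a group came from different mice, so the p-values measure only the spread between these cards, which may be technical. In RNA from whole tissue, fewer cells of a type and less RNA per cell cannot be told apart.

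The seeds and positions of the miRNAs are shown because the cluster is one block of neighbouring hairpins whose products differ in seed and, in these data, in response. Mature sequences from RefSeq (GRCm38.p6) were found for 9 of the 10 assays, with older names without an arm read as the arm those names stand for. None was found for miR-376c, which was higher at 1 week and so is missing from the list below. All 10 lie on the plus strand of chromosome 12, and capitals mark the seed, bases 2 to 8. The sequences of the assays that were higher at 1 week are, in order along the chromosome:
miR-379-5p: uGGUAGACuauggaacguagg
miR-411-5p: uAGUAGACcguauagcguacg
miR-376a-3p: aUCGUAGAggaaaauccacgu
miR-409-3p: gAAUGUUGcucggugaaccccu
miR-410-3p: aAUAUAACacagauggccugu

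Those of the assays that were not higher at 1 week, or were not detected often enough for a test, are:
miR-494-3p: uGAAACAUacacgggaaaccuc
miR-543-3p: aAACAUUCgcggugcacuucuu
miR-667-3p: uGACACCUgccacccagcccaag
miR-382-5p: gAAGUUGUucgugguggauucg

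None of the 36 pairs among these 9 sequences had the same seed. The closest were miR-379-5p and miR-411-5p, neighbours in the genome, whose seeds differed at 1 of 7 bases. The seeds of miR-494-3p and miR-667-3p differed at 2 of 7 bases. The mature miR-379-5p lies at chr12:109709065-109709085, miR-494-3p at chr12:109715367-109715388 and miR-410-3p at chr12:109743764-109743784, and 35 plus-strand hairpins were annotated from the first to the last of the cluster over 34.7 kb. Although the cluster is often assigned to Mirg, the RefSeq model of Mirg starts 25.9 kb downstream of the miR-379 hairpin. It contains only 2 of the 10 hairpins, those of miR-409 (mature miR-409-3p at chr12:109743204-109743225) and miR-410, and the other 8 lie before its start.

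The measurement is the threshold cycle (Ct), the PCR cycle at which fluorescence crosses a threshold, so 1 cycle less stands for about a doubling of the template. All 10 assays gave a Ct on at least 1 card, and 8 of them did on all 8 cards. These 8 entered the test with 158 other assays, making 166 with a Ct on every card and a mean Ct below 35. Between 193 and 235 assays were determined per card, and a plant miRNA assay that should stay empty was determined on 0 cards. The card mean used for centring ran from Ct 27.48 (8 weeks, replicate 1) to 29.77 (4 weeks, replicate 2). Values below are centred, that is, the Ct of an assay was taken from the average of its card over 149 assays (those always below Ct 35), so that a higher value is a higher level on a log2 scale. Precision is limited by the 2 cards per group.

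**Figure D1:**
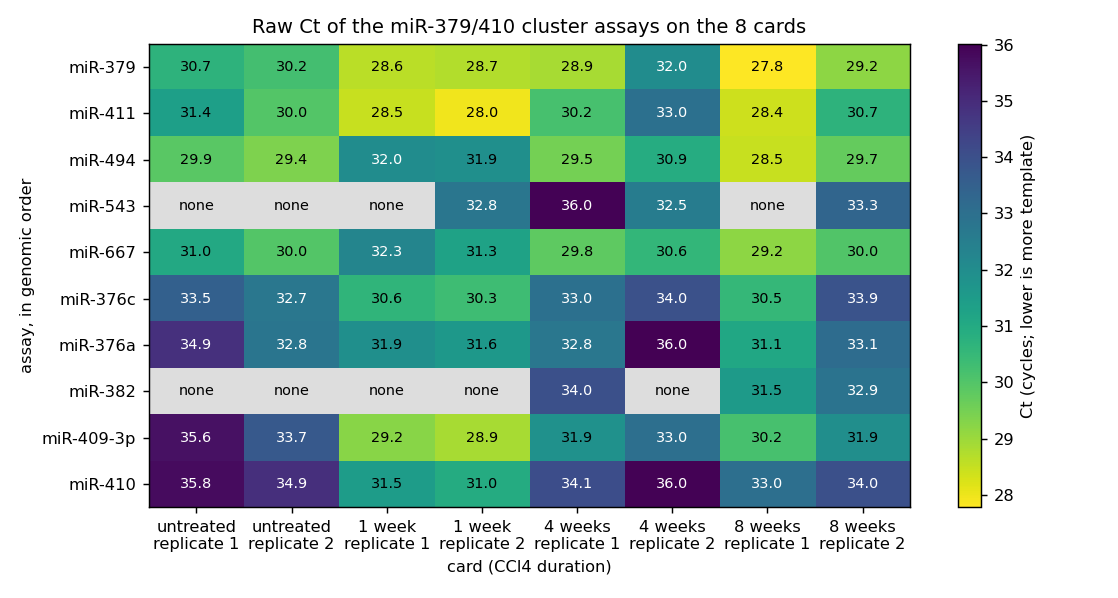
Ct of the 10 assays (vertical) on each of the 8 cards (horizontal), with a lower Ct standing for more template and grey cells marked none for undetermined Ct. miR-409-3p and miR-410 lay between Ct 28.85 and 31.47 on the 1-week cards and between 33.72 and 35.76 on the untreated cards.

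miR-409-3p and miR-410, the last of the 10 assays along the chromosome, were near the limit of detection in untreated liver. For miR-409-3p the Ct was 35.65 and 33.72 on the untreated cards, then 29.24 and 28.85 on those of 1 week, 31.85 and 32.99 on those of 4 weeks, and 30.17 and 31.94 on those of 8 weeks. All 6 cards from CCl4 mice lay below the Ct of both untreated cards, and the 1-week cards were the lowest. Relative to the untreated mean, the level of miR-409-3p was 61.9 ± 6.71 after 1 week, 7.55 ± 1.40 after 4 and 10.9 ± 2.00 after 8 weeks (SD, n = 2 cards each). The log2 fold change at 1 week was 6.15 (SE 0.50, adjusted p = 0.000275, limma), the highest of the 166 assays tested. The untreated cards differed by 1.58 after centring, and the value at 1 week was 5.30 without the first of them and 6.92 without the second, with 2.29 and 3.89 at 4 weeks and 2.83 and 4.42 at 8 weeks.

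For miR-410 the Ct was 35.76 and 34.89 on the untreated cards, then 31.47 and 30.96 on those of 1 week, 34.07 and 35.95 on those of 4 weeks, and 33.00 and 33.99 on those of 8 weeks. Before centring, the second 4-week card lay above both untreated cards, and after centring all treated cards were higher than the untreated ones. The relative level of miR-410 was 24.4 ± 4.07 after 1 week, 2.22 ± 0.389 after 4 and 3.56 ± 0.703 after 8 weeks (SD, n = 2 cards each). Its log2 fold change at 1 week was 4.62 (SE 0.33, adjusted p = 0.000213, limma), the second highest of those tested. The untreated Ct values of both miRNAs, at or near 35, set the denominators of these ratios.

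**Figure D2:**
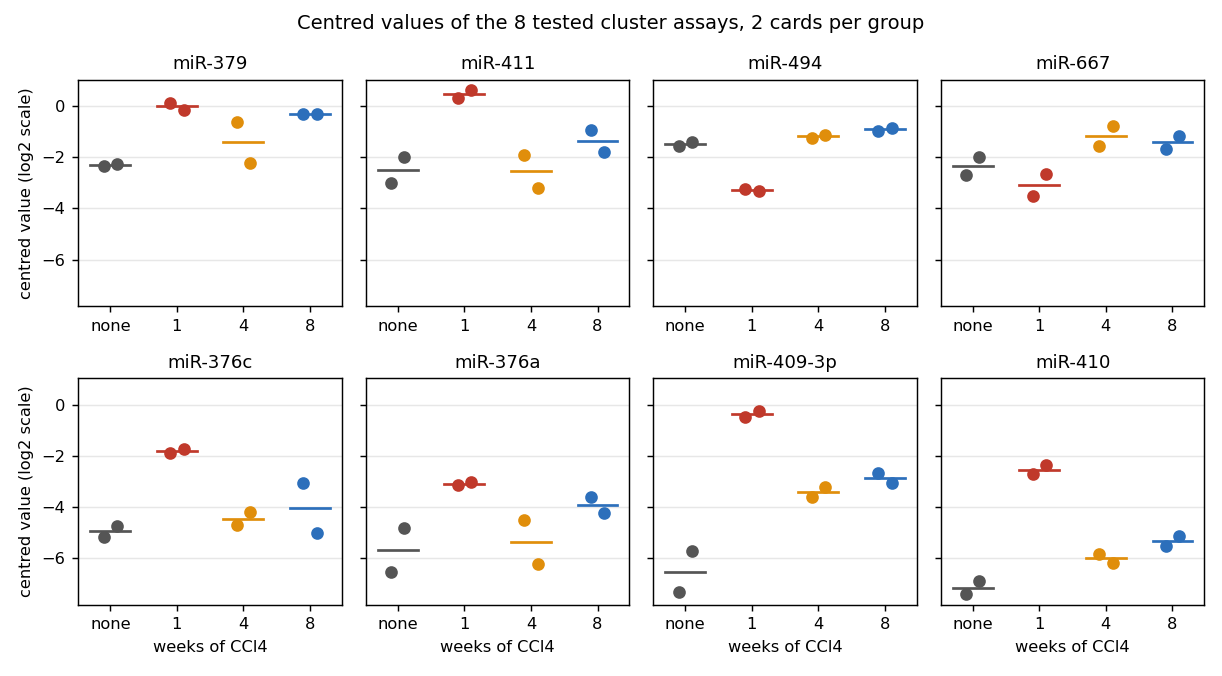
Centred value (log2 scale, vertical) of each of the 8 tested assays on each card, by group (horizontal), with points for cards and lines for group means. The 1-week cards of miR-494 are lower than all its other cards, while those of miR-379, miR-411, miR-376a, miR-376c, miR-409-3p and miR-410 are higher than all their others.

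miR-379 and miR-411 lie at the upstream end of the cluster. The centred value of miR-379 was -2.35 and -2.25 on the untreated cards, then 0.13 and -0.14 on those of 1 week, -0.62 and -2.23 on those of 4 weeks, and -0.30 and -0.31 on those of 8 weeks. Its 1-week cards were the highest, and at 4 weeks one card was near the 8-week level and the other near the untreated level. The log2 fold change of miR-379 was 2.29 at 1 week (SE 0.49, adjusted p = 0.0132, limma), with relative levels of 4.92 ± 0.644 at 1 week, 2.13 ± 1.53 at 4 weeks and 3.99 ± 0.0293 at 8 weeks (SD, n = 2 cards each). With undetermined values at Ct 40 the 1-week value was the same and its adjusted p was 0.0525 (limma).

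For miR-411 the centred values were -3.02 and -2.0 on the untreated cards, then 0.31 and 0.63 on those of 1 week, -1.91 and -3.20 on those of 4 weeks, and -0.94 and -1.80 on those of 8 weeks. The 1-week cards stood above all others, and the 4-week cards spanned the untreated range. The log2 fold change of miR-411 was 2.98 at 1 week (SE 0.55, adjusted p = 0.00790, limma), a relative level of 7.45 ± 1.17 (SD, n = 2 cards), and -0.04 at 4 weeks (adjusted p = 0.980).

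miR-376a and miR-376c belong to the miR-376 group, whose precursors are known as targets of adenosine-to-inosine editing in the brain. The centred value of miR-376a was -6.53 and -4.81 on the untreated cards, then -3.14 and -3.01 on those of 1 week, -4.51 and -6.24 on those of 4 weeks, and -3.62 and -4.23 on those of 8 weeks. For miR-376c these values were -5.15 and -4.75 on the untreated cards, then -1.87 and -1.72 on those of 1 week, -4.72 and -4.19 on those of 4 weeks, and -3.06 and -5.03 on those of 8 weeks. Both were highest on the 1-week cards, and at 4 weeks miR-376a overlapped the untreated cards, as miR-376c did at 8 weeks. The log2 fold changes at 1 week were 2.59 for miR-376a (SE 0.70, adjusted p = 0.0271) and 3.15 for miR-376c (SE 0.60, adjusted p = 0.00800, both limma). For miR-376a this was 1.66 without the first untreated card and 3.44 without the second, and the call was lost without the first untreated card or either 1-week card (adjusted p from 0.0993 to 0.174, limma). It was also lost with quantile normalization (2.32, adjusted p = 0.0730) and with undetermined values at Ct 40 (2.59, adjusted p = 0.0975, both limma). U6 alone (0.215, adjusted p = 0.780) and no centring (2.08, adjusted p = 0.179, both limma) lost it too.

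miR-494 and miR-667 lie between miR-411 and the miR-376 hairpins and had another course. The centred value of miR-494 was -1.54 and -1.39 on the untreated cards, then -3.23 and -3.30 on those of 1 week, -1.24 and -1.14 on those of 4 weeks, and -0.99 and -0.84 on those of 8 weeks. Its 1-week cards were the lowest and lay far outside the spread of the other 6. The relative level of miR-494 at 1 week was 0.286 ± 0.00957 (SD, n = 2 cards) and its log2 fold change was -1.80 (SE 0.26, adjusted p = 0.00373, limma). Its pooled replicate SD, 0.087 on the log2 scale, was the lowest of the 8.

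For miR-667 the centred values were -2.69 and -1.98 on the untreated cards, then -3.51 and -2.67 on those of 1 week, -1.57 and -0.78 on those of 4 weeks, and -1.69 and -1.15 on those of 8 weeks. The 1-week and untreated cards overlapped narrowly, and the 4-week and 8-week cards were above both. At 1 week its log2 fold change was -0.76 (SE 0.46, adjusted p = 0.230, limma), which did not pass the threshold.

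Across the 1-week comparison, 6 of the 8 tested cluster assays rose and 1 fell, while 18.1% of all 166 tested assays were called higher and 14.5% lower. Both 1-week cards lay above both untreated cards for 6 and below for 1, which held for 36.1% and 40.4% of all tested assays. The median log2 fold change was 2.78 for the 8 and -0.09 for all tested assays. Every one of the 6 higher values and the lower value of miR-494 kept its direction under the scalings tried, except that miR-379 was -0.09 when U6 alone was the reference. With U6 alone only 2 of the 8 were called higher, miR-409-3p and miR-410, and 2 lower, miR-494 and miR-667, the last of these turning to 0.64 with snoRNA202 alone. Under U6 alone 126 of 165 assays were called and their median was -2.48, beside 0.41 for the 8. U6 and snoRNA202 are small RNAs carried on the card as controls, and they themselves differed at 1 week from untreated liver after centring, by 2.38 (adjusted p = 0.00800) and -1.39 (adjusted p = 0.0139, limma). The count of 7 rests in part on the first untreated card, without which it was 3, namely miR-409-3p, miR-410 and miR-494, as the count over all assays went from 54 to 17. The log2 fold changes without that card were still 2.88 for miR-376c and 2.40 for miR-411. Without either 1-week card the count was 5 (28 and 24 over all assays), the calls of miR-379 (adjusted p = 0.0728 and 0.0536) and miR-376a (adjusted p = 0.0993 and 0.110, limma) being lost.

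Differences in raw Ct between 2 assays on the same card are not moved by a scaling that subtracts 1 value per card, as all those tried do except quantile normalization. The Ct of miR-494 minus that of miR-411, its nearest tested neighbour upstream, was -1.48 and -0.61 cycles on the untreated cards, 3.54 and 3.93 on those of 1 week, -0.67 and -2.06 on those of 4 weeks, and 0.05 and -0.96 on those of 8 weeks. The difference on both 1-week cards was thus above that on all 6 other cards. The same difference for miR-409-3p was -5.76 and -4.34 on the untreated cards, then 2.76 and 3.05 on those of 1 week, -2.36 and -2.08 on those of 4 weeks, and -1.70 and -2.22 on those of 8 weeks. These pairs were chosen after their values were seen and carry no test. Ct differences between assays also hold each assay's efficiency, so only their changes between cards are read here.

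**Figure D3:**
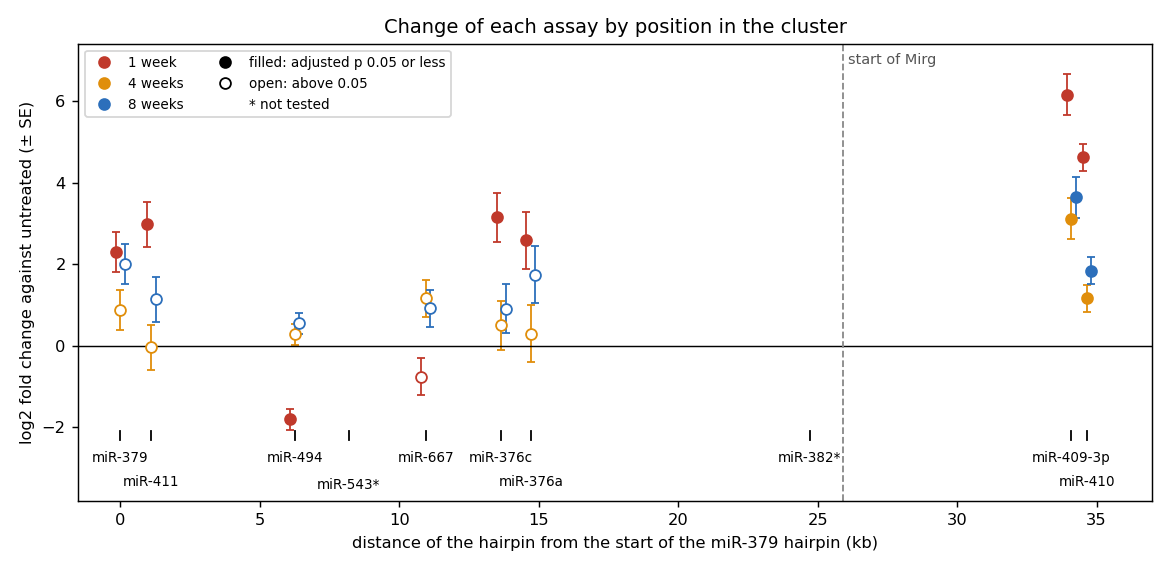
Log2 fold change against untreated liver (vertical, bars ± SE, limma) at 1, 4 and 8 weeks, by distance of the hairpin from the miR-379 hairpin in kb (horizontal). Filled points passed an adjusted p of 0.05, ticks mark all 10 hairpins, and the 2 inside the RefSeq model of Mirg, miR-409 and miR-410, have the highest values at 1 week.

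At 4 weeks 2 of the 8 assays were called higher and 0 lower, against 13.3% and 16.9% of all tested assays. The 2 were miR-409-3p, with a log2 fold change of 3.11 (adjusted p = 0.00529), and miR-410, with 1.16 (adjusted p = 0.0331, both limma). The remaining 6 ran from -0.04 for miR-411 to 1.17 for miR-667, whose adjusted p was 0.0895. miR-667 was called in 4 of 25 alternatives, among them the replicate number as a block (1.17, adjusted p = 0.0245, limma). Both 4-week cards lay above both untreated cards for 6 of the 8 and below for 0, beside 33.7% and 34.3% of all tested assays. The median of the 8 was 0.69, beside 0.03 for all tested assays. The call for miR-410 was lost when either untreated card, either 1-week card or either 4-week card was left out, with adjusted p-values up to 0.172, leaving 1 or 2 of the 8 called.

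At 8 weeks 2 of the 8 were again called higher, against 2.41% of all tested assays, and 0 lower, against 0.602%. The log2 fold change was 3.64 for miR-409-3p (adjusted p = 0.0123) and 1.84 for miR-410 (adjusted p = 0.0231, both limma). The other 6 had values from 0.55 for miR-494 to 2.00 for miR-379, whose adjusted p was 0.0787. For 7 of the 8 both 8-week cards lay above both untreated cards, which held for 28.3% of all tested assays, and the exception was miR-376c. Below them lay 0, beside 32.5%. Without the first 1-week card or without either 8-week card 0 of the 8 were called by limma (3 to 5 at an unadjusted p under 0.05), as were 0 of all assays, while the log2 fold change was 3.63, 3.46 and 3.83 for miR-409-3p and 1.83, 2.05 and 1.64 for miR-410. The count was 1 without either untreated card or without the second 1-week card.

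The decline from 1 week to 4 weeks was tested directly. All 8 assays differed between these times, 6 lower and 2 higher at 4 weeks, beside 25.3% and 21.7% of all tested assays. The log2 differences ran from -1.41 for miR-379 (adjusted p = 0.0482) to -3.46 for miR-410 (adjusted p = 0.00101, both limma) among the lower ones. miR-494 and miR-667 were higher at 4 weeks by 2.08 (adjusted p = 0.00274) and 1.92 (adjusted p = 0.0148, both limma). With U6 alone as the reference, which itself differed by -3.88 between these times after centring (adjusted p = 0.00221, limma), the 6 lower values turned positive, from 0.42 for miR-410 to 2.47 for miR-379, and the median of all assays moved to 3.86 from -0.03. Without the second 4-week card or the first 1-week card the count fell to 4, and without the second 1-week card to 5, while the count over all assays fell from 78 to 27, 30 and 38. Leaving out the first or the second 4-week card gave -2.22 and -0.54 for miR-379, -3.16 and -1.36 for miR-376a, and -3.66 and -2.3 for miR-411.

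Between 8 weeks and 1 week 6 of the 8 differed. Lower levels at 8 weeks were called for miR-411, miR-376c, miR-409-3p and miR-410 (log2 differences from -1.83 to -2.78, limma), 4 lower calls beside 13.9% of all tested assays, and miR-494 and miR-667 were higher by 2.36 and 1.68, 2 higher calls beside 10.2%. miR-379 had -0.29 (adjusted p = 0.646) and miR-376a had -0.84 (adjusted p = 0.386), so these 2 were not shown to differ from their 1-week level. All 4 lower values again turned positive with U6 alone, where the median of all assays was 3.60 and 158 of 165 were called. The count was 2 without either 1-week card or without the second 8-week card, while that over all assays fell from 40 to 7, 7 and 3. Leaving out the first or the second 8-week card gave -3.23 and -1.25 for miR-376c.

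Between 8 and 4 weeks 0 of the 8 were called by limma, beside 1.2% of all tested assays, and 0 had an unadjusted p under 0.05, beside 27 of the 166. The values ran from -0.25 for miR-667 to 1.45 for miR-376a. Over all times, the F test in limma called all 8 (adjusted p from 0.00131 to 0.0431), beside 54.2% of all tested assays. That count was 3 without either 1-week card and 5 without the first untreated card. Over all assays the F test was counted in the main fit only, so these losses have no share beside them.

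**Figure D4:**
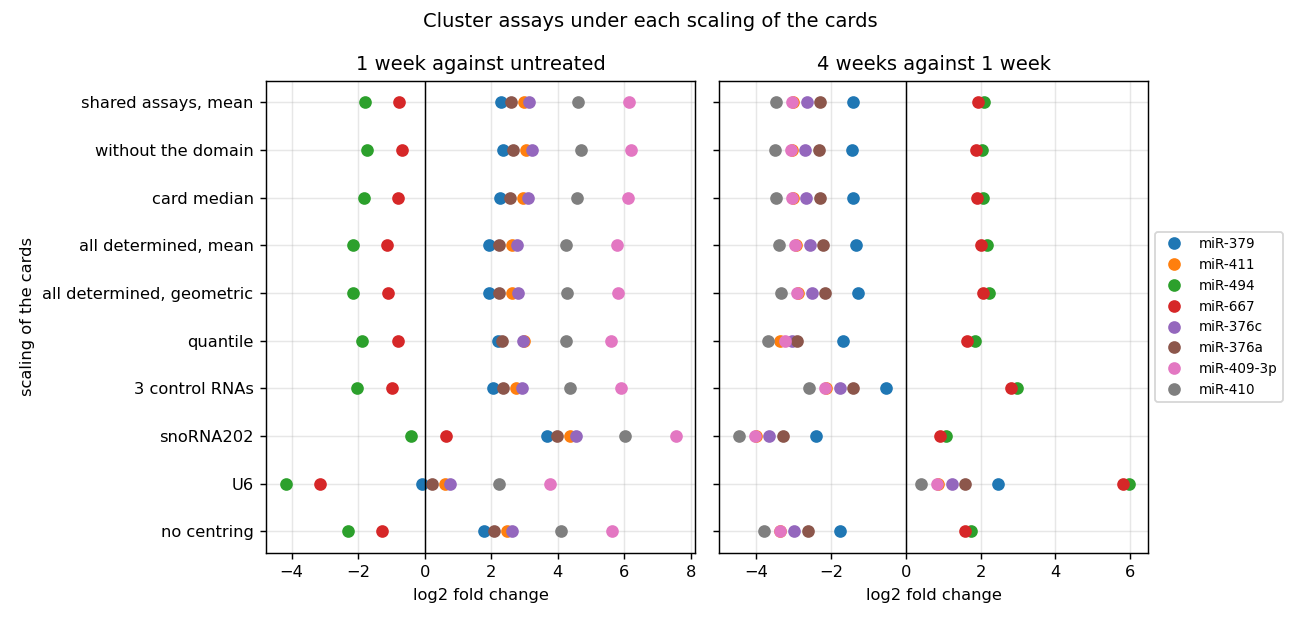
Log2 fold change (horizontal) of each of the 8 tested assays (1 colour each) under each scaling of the cards (vertical), for 1 week against untreated liver on the left and 4 weeks against 1 week on the right. On the left miR-409-3p stays between 3.78 and 7.55 and miR-410 between 2.25 and 6.02, miR-494 stays below 0, and with U6 alone miR-379 is at -0.09, while on the right U6 alone puts all 8 above 0.

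The median pooled replicate SD was 0.59 for the tested cluster assays, beside 0.39 for all tested assays, without matching on Ct. It was highest for miR-376a (0.89), while miR-410 (0.29) and miR-494 (0.087) lay below the median of all tested assays. At 4 weeks the first card was above the second by 1.61 for miR-379, 1.29 for miR-411 and 1.73 for miR-376a, and below it by 0.38 for miR-409-3p. The profile over the 8 cards also separated the assays. Pearson's r of each assay with the mean of the other 7 was from 0.78 to 0.94 for the 6 that rose, -0.66 for miR-494 and -0.38 for miR-667, a description over cards that share one centring.

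miR-382, determined on 3 cards, and miR-543, determined on 4, were not tested. miR-382 was undetermined on both untreated cards, both 1-week cards and the second 4-week card, and its Ct was 34.00 on the first 4-week card and 31.51 and 32.89 at 8 weeks. It was thus read on both cards at 8 weeks only, and on neither card at 1 week, when miR-409-3p and miR-410 had their lowest Ct. miR-543 had a Ct of 32.77 on the second 1-week card, 35.96 and 32.54 at 4 weeks, and 33.34 on the second 8-week card, and none elsewhere. Its cards at 4 weeks differed by more than 3 cycles. With undetermined values set to Ct 40, miR-382 was 7.30 higher at 8 weeks than at 1 week (adjusted p = 0.0482) and 7.81 higher than in untreated liver (adjusted p = 0.0877, both limma), sizes that follow from the number put in.

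Other miRNAs of the domain were given by a list. Of 27 further assays of the cluster on the cards, 14 were determined on at least 1 card and 0 on all 8, so none was tested. miR-134, known in neurons for restraining Limk1 and dendritic spine size, came nearest with 7 cards. It was undetermined on the first untreated card and had a Ct of 32.82 on the second, 29.33 and 28.99 on those of 1 week, 30.99 and 31.97 on those of 4 weeks, and 30.40 and 32.83 on those of 8 weeks. Its lowest Ct values were thus at 1 week. Of 15 assays upstream in the domain (near Meg3, antisense to Rtl1, and in Rian), 4 were tested, and 2 of these rose at 1 week, beside 18.1% of all tested assays. The log2 fold change was 2.09 for miR-434-3p (adjusted p = 0.00373) and 1.57 for miR-127 (adjusted p = 0.0271), both antisense to the retrotransposon-derived gene Rtl1, with 1.66 for miR-136 (adjusted p = 0.120) and 1.04 for miR-337-3p (adjusted p = 0.226, all limma). At 4 and 8 weeks 0 of these 4 were called higher or lower than untreated by limma, with 2 at an unadjusted p under 0.05 at each time, beside 73 of the 166 tested assays at 4 weeks and 40 at 8 weeks. Against 1 week, 3 of the 4 were called lower at 4 weeks, beside 25.3% of all tested assays, and 1 at 8 weeks, beside 13.9%. The log2 differences at 4 weeks were -3.04 for miR-136 (adjusted p = 0.0161) and -2.52 for miR-337-3p (adjusted p = 0.0164, both limma). They were -1.70 for miR-434-3p (adjusted p = 0.00614) and -0.36 for miR-127 (adjusted p = 0.490, both limma).

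Outside the domain, the 5 assays whose profile over the 8 cards was most like the mean of the tested cluster assays were miR-335-5p (Pearson's r = 0.89), miR-335-3p (0.88), miR-342-3p (0.87), miR-184 (0.86) and miR-146a (0.86), among 154 assays. With each card centred on all its determined assays, miR-335-3p had r = 0.72 and rank 13, and the other 4 held ranks 1 to 4. These values are a description over 8 cards that share one centring.

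Markers of liver cell types were read on the same cards. The hepatocyte list (miR-122, miR-192, miR-194, miR-802 and miR-148a, all 5 tested) had a summed level of 7.81 to 7.86 (log2) on the untreated cards, then 7.04 to 7.08 after 1 week, 6.28 to 6.45 after 4 and 7.08 to 7.31 after 8 weeks. Of its miRNAs only miR-802 was called lower at 1 week, 4 of 5 were at 4 weeks and miR-802 again at 8 weeks, and miR-122 was called at no time (adjusted p = 0.0949, 0.740 and 0.921, limma). Of all tested assays 14.5%, 16.9% and 0.602% were called lower at 1, 4 and 8 weeks. The leukocyte list (all 5 tested) had 3.61 to 3.98 untreated, then 5.58 to 5.85 after 1 week, 6.04 to 6.31 after 4 and 4.67 to 4.87 after 8 weeks. At 1 week 4 of its 5 miRNAs rose, beside 18.1% of all tested assays. Their log2 fold changes ran from 1.40 for miR-155 to 2.06 for miR-223 (limma), and miR-142-3p had -0.20 (adjusted p = 0.647, limma). From 1 to 4 weeks the members of the leukocyte list went different ways, with log2 differences of 2.20 for miR-142-3p (adjusted p = 0.00343), -1.84 for miR-150 (adjusted p = 0.00614), 0.71 for miR-223 (adjusted p = 0.0905), -0.37 for miR-155 (adjusted p = 0.361) and -0.03 for miR-142-5p (adjusted p = 0.940, all limma). At 4 weeks miR-150 had 0.13 against untreated liver (adjusted p = 0.790, limma). The mesenchymal and stellate list (4 of 5 tested, miR-199a-5p being determined on 1 card) had 3.39 to 3.56 untreated, then 3.46 to 3.55 after 1 week, 3.78 to 4.22 after 4 and 3.38 to 3.69 after 8 weeks, so the 1-week and untreated cards overlapped, and 0 of the 4 were called at 1 week by limma (adjusted p from 0.168 to 0.966). At 4 weeks miR-199a-3p (1.10, adjusted p = 0.0457) and miR-214 (1.69, adjusted p = 0.0110, both limma) were called higher, beside 13.3% of all tested assays. miR-143 had -0.34 (adjusted p = 0.354) and miR-145 had 0.33 (adjusted p = 0.520, both limma) at that time. The endothelial list (both arms of miR-126) had 7.91 to 8.41 untreated, 8.73 to 8.80 after 1 week, 5.95 to 6.75 after 4 and 6.84 to 7.67 after 8 weeks, and neither arm was called at 1 week (adjusted p = 0.256 and 0.870, limma). At 4 weeks both arms were called lower than untreated (-1.83, adjusted p = 0.0142, and -1.65, adjusted p = 0.0294, limma), beside 16.9% of all tested assays. Against 1 week both were also lower at 4 weeks (-2.47, adjusted p = 0.00598, and -1.77, adjusted p = 0.0202, limma), beside 25.3%. Neither was called at 8 weeks against untreated liver (adjusted p = 0.201 and 0.275, limma). The erythroid list (miR-451 and miR-486, both tested) had a summed level between 0.72 and 1.24 on all cards, but its members differed. Against untreated liver miR-451 had -0.86, 0.55 and 0.74 at 1, 4 and 8 weeks, and miR-486 had 0.18, -0.18 and 0.03, none of them called. From 1 to 4 weeks miR-451 rose by 1.40 (adjusted p = 0.0242), beside 21.7% of all tested assays called higher. miR-486 had -0.36 (adjusted p = 0.352, both limma). The part of these cell types in the cluster values was not tested.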

How the data were processed

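The authors deposited a threshold cycle (Ct) for each of 381 assays on 8 cards (other unit: PCR cycles, not normalized, not pooled), from TaqMan Array Rodent MicroRNA A Cards run on RNA without pre-amplification. Empty cells are undetermined. The authors also deposited their own fold changes between groups, which were not used. The software that set the threshold is not given in the sources used here. Groups and replicate numbers came from the labels.

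Each card was centred on its mean Ct over 149 assays below Ct 35 on every card. The 166 assays determined on all cards with a mean Ct below 35 were fitted with limma 3.58.1 (lmFit and eBayes, R 4.3.3), all 8 cards in 1 model (4 residual degrees of freedom, 3.47 prior). p-values were adjusted by Benjamini-Hochberg within each comparison over all 166 assays, at 0.05. With 2 cards against 2 an exact permutation test could not reach 0.05, so none is given. Relative levels are 2 to the power of the centred value over the untreated mean of such values. Figures were drawn with matplotlib 3.10.9. The procedure was tested on simulated data with noise drawn independently for each assay and card. Replicate differences shared between groups, as on these cards, were not simulated. The alternatives were other scalings, Ct limits, undetermined values at Ct 40, other limma settings, the replicate number as a block and each card left out.

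All 10 members were named, with control RNAs where a scaling is discussed, the 5 most similar assays by Pearson's r, and tested assays of the domain. Members and lists were chosen with earlier results of these data known. Replicate numbers did not pair the cards alike in all groups, by the correlation across assays of the replicate 1 minus replicate 2 difference. This was 0.43 between 4 and 8 weeks, and -0.39 and -0.50 between the untreated group and those of 4 and 8 weeks. With the 1-week group it ran from 0.002 to 0.10. Replicate differences were thus partly shared between groups after centring, and their source was not tested.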

Additional observations from a re-analysis of the deposited data

Results flagged for a closer look

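Effects at different times were set against each other by testing the later time directly against 1 week (limma, adjusted over all assays tested). For 4 weeks against 1 week the difference passed the threshold for all 8 tested assays, with log2 differences of -1.41 for miR-379, -3.02 for miR-411, -2.29 for miR-376a, -2.65 for miR-376c, -3.04 for miR-409-3p and -3.46 for miR-410, and with increases of 2.08 for miR-494 and 1.92 for miR-667. For 8 weeks against 1 week it did so for 6, with -1.83 for miR-411, -2.24 for miR-376c, -2.51 for miR-409-3p and -2.78 for miR-410, and with increases of 2.36 for miR-494 and 1.68 for miR-667. Of all 166 tested assays, 78 and 40 passed in these comparisons. The call of miR-379 at 4 weeks against 1 week held in 9 of 25 alternatives. At 8 weeks against 1 week that of miR-411 held in 12 of 25 and that of miR-376c in 14 of 24. The 1-week cards are shared by both sets of differences.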

How the results depend on the processing

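The call of miR-409-3p at 1 week held in all 25 alternatives run (3.78 to 7.55, adjusted p up to 0.00554) and that of miR-410 in all 24 (2.25 to 6.02, up to 0.00535). miR-494 was below 0 at 1 week in all 25 (-4.18 to -0.41) and called in 23. Its call was lost with snoRNA202 alone (-0.41, adjusted p = 0.376) and with no centring (-2.315, adjusted p = 0.147, both limma). Over single miRNAs and comparisons, 807 alternative values kept direction and side of the threshold, 124 lost the call, 21 gained it and 33 turned sign, 14 of these with U6 alone, which put the median of all assays as high as 3.86. The Ct 40 setting tested all 10 assays, 245 in all. The cause was not tested for any of them. Leaving out 1 card gave counts of called assays of 3 to 7 at 1 week, 1 to 2 at 4 weeks, 0 to 3 at 8 weeks, 4 to 8 for 4 weeks against 1 week, 2 to 6 for 8 weeks against 1 week, 0 to 0 for 8 against 4 weeks and 3 to 8 for the F test. The medians then ran from 2.29 to 3.39, 0.52 to 1.04, 0.77 to 1.84, -2.62 to -1.83, -1.71 to -0.89 and 0.52 to 0.92 in the same order of comparisons. At 1 week 4 of 8 were called with U6 alone, 2 with no centring and 4 with a mean Ct below 32, which left only 5 in the test. Over all assays these settings called 126 of 165, 5 of 166 and 52 of 133. At 4 weeks 1 was called with the arithmetic or geometric mean over all determined Ct values, the median, quantile normalization, a mean Ct below 32, Ct 40, a trend in eBayes or only the groups compared, 7 with U6 alone (82 of all assays, median 1.54) and 0 with no centring (10 of all assays, 1 of the 8 at an unadjusted p under 0.05, limma). Over all assays the settings with 1 called gave 39, 35, 44, 45, 51, 28, 53 and 37 calls in that order. At 8 weeks 1 was called with either mean over all determined values, quantile normalization, no centring or a mean Ct below 32 (1, 1, 4, 1 and 3 of all assays), 7 with U6 alone (40 of all assays, median 1.09), and 0 with Ct 40 (4 unadjusted) or only the groups compared (4 unadjusted, limma). For 4 weeks against 1 week the count was 4 with U6 alone, all higher, 5 with no centring, 5 with a mean Ct below 32 and 4 with Ct 40. Over all assays these settings called 150 of 165, 29 of 166, 61 of 133 and 37 of 245. For 8 weeks against 1 week the cluster count was 3 with quantile normalization, 1 with no centring and 3 with Ct 40, miR-382 among them and miR-667 no longer, and for the F test 5, 4 and 4, with 5 for a mean Ct below 32. Over all assays quantile normalization, no centring and Ct 40 called 20, 8 and 16 at 8 weeks against 1 week. For the F test, calls over all assays were counted in the main fit only. The median at 1 week was 0.41 with U6 alone and 4.18 with snoRNA202 alone. At 4 weeks it was 1.33 with U6, snoRNA135 and snoRNA202 together, 2.20 with U6 alone and -0.16 with no centring, and at 8 weeks 2.56 with U6 alone. For 4 weeks against 1 week it was -1.59 with the 3 controls, 1.41 with U6, -3.47 with snoRNA202, -1.41 with a mean Ct below 32 and -1.85 with Ct 40. For 8 weeks against 1 week it was -0.64, 2.15, -2.52 and -0.29 with the first 4 of these, and for 8 against 4 weeks 1.44 with no centring. With U6 alone miR-379 turned to -0.085 at 1 week, and the lower values at 4 against 1 week turned to 2.47 (miR-379), 0.87 (miR-411), 1.59 (miR-376a), 1.23 (miR-376c), 0.84 (miR-409-3p) and 0.42 (miR-410). At 8 against 1 week they turned to 3.20 (miR-379), 1.66 (miR-411), 2.65 (miR-376a), 1.25 (miR-376c), 0.98 (miR-409-3p) and 0.71 (miR-410). miR-379 in that comparison was also 0.018 with the geometric mean, 0.41 with the 3 controls and 0.21 with no centring. At 4 weeks miR-411 turned to 0.60 with the 3 controls, 1.47 with U6 and 0.36 with snoRNA202, miR-376a to -0.60 with quantile normalization and -0.55 with no centring, miR-376c to -0.072 and -0.35, and miR-494 to -0.03 and -0.57. miR-667 at 1 week turned to 0.64 with snoRNA202. Leaving out 1 card gave -0.68 to 0.60 for miR-411 and -0.59 to 1.16 for miR-376a at 4 weeks, and -0.080 to 1.90 for miR-376c at 8 weeks. Leaving out the faintest and brightest cards together, chosen after seeing the data, gave 0 called at 8 weeks (3 unadjusted, limma), 5 for 4 weeks against 1 week with a median of -1.83, miR-411 at 0.60 at 4 weeks and miR-376c at -0.074 at 8 weeks. With the replicate number as a block 7, 3 and 2 were called at 1, 4 and 8 weeks, 8 and 5 at 4 and 8 weeks against 1 week and 7 in the F test. The block added miR-667 at 4 weeks and lost miR-411 at 8 weeks against 1 week. Over all assays it called 50, 49 and 4 at 1, 4 and 8 weeks, and 75 and 38 at 4 and 8 weeks against 1 week. With the untreated numbers crossed, also chosen after seeing the data, the counts at 1, 4 and 8 weeks were 7, 2 and 3. Over all assays they were then 74, 65 and 17, beside 54, 50 and 5 in the main fit.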

Other observations

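Ct values of the deposited table lay near whole numbers more often than their share of the range in each Ct band read, without a steady rise with Ct. Of values at Ct 30 or more, 38.4% of 937 were within 0.10 of a whole number, beside 27.0% of 533 between 26 and 30 and 34.0% of 259 below 26, where 21% of the range lies that near. Of the 52 values of the cluster assays at Ct 30 or more, 42.3% did so.

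Between miR-409-3p and miR-410, the 2 assays inside Mirg, the Ct difference within a card was 0.11 and 1.17 on the untreated cards, then 2.23 and 2.11 on those of 1 week, 2.22 and 2.96 on those of 4 weeks, and 2.83 and 2.05 on those of 8 weeks. All 6 treated cards lay above both untreated ones, a change between cards and not a comparison of the 2 levels. This pair was chosen after its values were seen and was not tested.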
